A study of Homo sapiens with 33 samples.

Results

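Gene expression was compared between 3 libraries of HT29 cells given 500 µg/mL of Sibjeondaebo-tang extract and 3 given 100 µg/mL, 6 of the 33 libraries in the series. HT29 is an established human colorectal adenocarcinoma line, and RNA was sequenced in bulk after 24 h of treatment. Sibjeondaebo-tang is a Korean herbal formula that contains the herbs of Palmul-tang and further ones, and each extract was made with 70% ethanol. The libraries were taken by their labelled extract and dose, and the question was which changes appeared only in the last dose step, between 100 and 500 µg/mL. The earlier step, 100 against 20 µg/mL (3 libraries at each dose), is of the same 5-fold size. Palmul-tang at 500 and 100 µg/mL (3 libraries at each dose) served for comparison, and the 3 vehicle libraries are labelled 0.1% DMSO, while the series text gives another percentage.

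Total counts were 45352382, 40696588 and 42180356 at 500 µg/mL and 37970713, 38253185 and 45031594 at 100 µg/mL, within the range of all libraries, 28558866 to 49068019. The share of counts from mitochondrially encoded genes was 6.19 ± 0.14% at 500 µg/mL and 6.37 ± 0.86% at 100 µg/mL (SD, n = 3 each), a difference that an exact two-sided permutation test did not call (p = 0.7, with 0.1 the smallest it can give). The vehicle libraries had shares of 7.43, 8.48 and 9.80% and total counts of 31784898, 35626398 and 31071786. Vehicle and extract libraries alike are titled BatchE, but the sample codes of the vehicle libraries begin differently, and the labels do not explain the codes. A difference between vehicle and extract thus cannot be told apart from one between library sets. All 12 colon epithelial marker genes were tested, and their summed level was 12670 to 13180 CPM (counts scaled to a common library total) at 500 µg/mL and 12600 to 13200 CPM at 100 µg/mL. Of 10 fibroblast, 11 immune and 7 endothelial marker genes, 3, 4 and 3 passed the filter on low counts and none was called at 500 against 100 µg/mL. Over the 6 libraries 3 fibroblast, 1 immune and 3 endothelial markers had 0 counts, among them COL1A2, PDGFRA, CDH5 and KDR. PTPRC had 1 count. Others were detected, such as COL1A1 (302 counts), LUM (211), CD68 (1520), CD14 (869), ITGAM (425), PECAM1 (391) and TEK (175). LYZ, at 1594 ± 55.7 CPM and 1450 ± 53.6 CPM, made up nearly the whole immune sum. In bulk RNA, fewer cells of a type and less RNA per cell cannot be told apart. The labels do not state whether the replicates were grown as separate cultures. The p-values therefore describe the spread between these libraries, which may be technical.

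NRF2 is a transcription factor that the adaptor protein KEAP1 holds at a low level in unstressed cells by sending it for degradation. Electrophiles, many of them plant compounds, modify KEAP1, and NRF2 then accumulates and binds antioxidant response elements beside genes for glutathione synthesis, quinone and carbonyl reduction, NADPH supply and drug conjugation. In the colon the same enzymes form part of the epithelium's defence against ingested chemicals.

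Nearly all genes on a list of targets of this NRF2 response were higher after the last step. The list was drawn up with earlier results of these data known, so its counts describe its members and are not a test. Of 28 NRF2 target genes tested, 27 were higher at 500 than at 100 µg/mL and none was lower, beside 7% of the 17432 genes tested that were higher and 7.31% that were lower. The median log2 fold change was 0.55 over the NRF2 targets and 0.00 over all genes tested. The gene that was not called was ABCC3, an efflux pump, with a log2 difference of 0.06 and a 95% interval of -0.02 to 0.14. In the earlier step 3 NRF2 targets were called higher, beside 0.0287% of all genes, and their median log2 fold change was 0.13. The difference between the steps was itself called, with a larger last step, for 16 of the 28, beside 0.201% of all genes tested. Both steps use the same 100 µg/mL libraries, so an error in those libraries moves the steps in opposite directions.

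The antioxidant response element core, written TGACNNNGC, was searched on both strands within 250 bases before the annotated start. It lay there in 5 of the 19 NRF2 targets that have a RefSeq promoter (26.3%). The share was 3013 of all 27305 RefSeq promoters and 12.2% of those of genes tested. It was 13.3% for genes higher at 500 µg/mL and 11.5% for genes lower. Among genes that rose in the last step only, as defined below, it was 2 of 17 (11.8%). The 5 NRF2 targets with the element encode a regulatory partner of glutamate-cysteine ligase (GCLM), thioredoxin reductase (TXNRD1), a pentose phosphate dehydrogenase (PGD), malic enzyme (ME1) and a glutathione peroxidase of the gut (GPX2). The windows are shown because they carry the element named for this response. They are from RefSeq on GRCh38.p14, on the strand of each gene, 5′ to 3′, with the match in capitals, and a match is a description of the letters and not of binding.
GCLM: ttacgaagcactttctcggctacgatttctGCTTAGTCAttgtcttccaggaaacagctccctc
TXNRD1: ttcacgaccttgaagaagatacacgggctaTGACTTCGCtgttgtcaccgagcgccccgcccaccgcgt
PGD: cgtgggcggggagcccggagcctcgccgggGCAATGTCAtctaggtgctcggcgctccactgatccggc
ME1: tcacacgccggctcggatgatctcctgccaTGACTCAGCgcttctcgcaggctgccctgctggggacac
GPX2: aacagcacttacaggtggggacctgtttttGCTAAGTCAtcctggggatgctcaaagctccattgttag
These windows span chr1:93909431-93909494 (minus strand), chr12:104215650-104215718 (plus strand), chr1:10398833-10398901 (plus strand), chr6:83431150-83431218 (minus strand) and chr14:64942829-64942897 (minus strand), in the order listed. TGACNNNGC reads on the gene's strand in TXNRD1 and ME1 and on the other strand in GCLM, PGD and GPX2. In the last step the 5 genes had log2 fold changes of 0.71 ± 0.05 (GCLM), 0.56 ± 0.07 (TXNRD1), 0.23 ± 0.03 (PGD), 0.46 ± 0.03 (ME1) and 0.32 ± 0.06 (GPX2) (± SE), all called. These 5 are named for the match and not by their rank.

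Genes were ranked if called, with a standard name, an average of 2 or more on the log2 CPM scale and no overlap between the doses. Of the 5 largest rises, 4 were in aldo-keto reductases, enzymes that reduce aldehydes and ketones with NADPH. AKR1C2 (chromosome 10, 4987400 to 5018031 on GRCh38) measured 47.1, 47.9 and 50.6 CPM at 500 µg/mL, against 13.9, 12.6 and 12.9 CPM at 100 µg/mL. The groups were far apart, and the log2 fold change was 1.89 ± 0.07 (SE; adjusted p = 7.91e-17 by edgeR's quasi-likelihood test with Benjamini-Hochberg adjustment, as for every adjusted p given here). AKR1B10 (chromosome 7, 134527592 to 134541408), which reduces dietary and lipid aldehydes in the gut, measured 300.4, 286 and 288 CPM at 500 µg/mL, against 131, 125 and 122 CPM at 100 µg/mL, a log2 fold change of 1.21 ± 0.05 (adjusted p = 4.8e-16). AKR1C1 had a log2 fold change of 1.35 ± 0.07 and AKR1C3 of 1.19 ± 0.12, both called. AKR1C1, AKR1C2 and AKR1C3 are near-identical neighbours on chromosome 10, and how reads were divided among them is uncertain. ALDH3A1, an aldehyde dehydrogenase, averaged 68.9 ± 2.00 CPM at 500 µg/mL and 33.2 ± 0.55 CPM at 100 µg/mL (SD, n = 3 each), a log2 fold change of 1.05 ± 0.05.

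These enzymes did not all begin to move in the last step. In the earlier step AKR1B10 (0.44 ± 0.05, adjusted p = 3.4e-05), ALDH3A1 (0.41 ± 0.05, adjusted p = 3.92e-05) and AKR1C2 (0.42 ± 0.08, adjusted p = 0.0273) were already called higher at 100 than at 20 µg/mL. For each of the 3 the last step was the larger one, by 0.77 ± 0.09 for AKR1B10, 0.64 ± 0.08 for ALDH3A1 and 1.46 ± 0.13 for AKR1C2 on the log2 scale, all called. Of these, AKR1B10 averaged 98.5 ± 6.31 CPM in vehicle, 92.8 ± 5.63 CPM at 20 µg/mL, 126 ± 4.64 CPM at 100 µg/mL and 292 ± 7.77 CPM at 500 µg/mL.

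**Figure D1:**
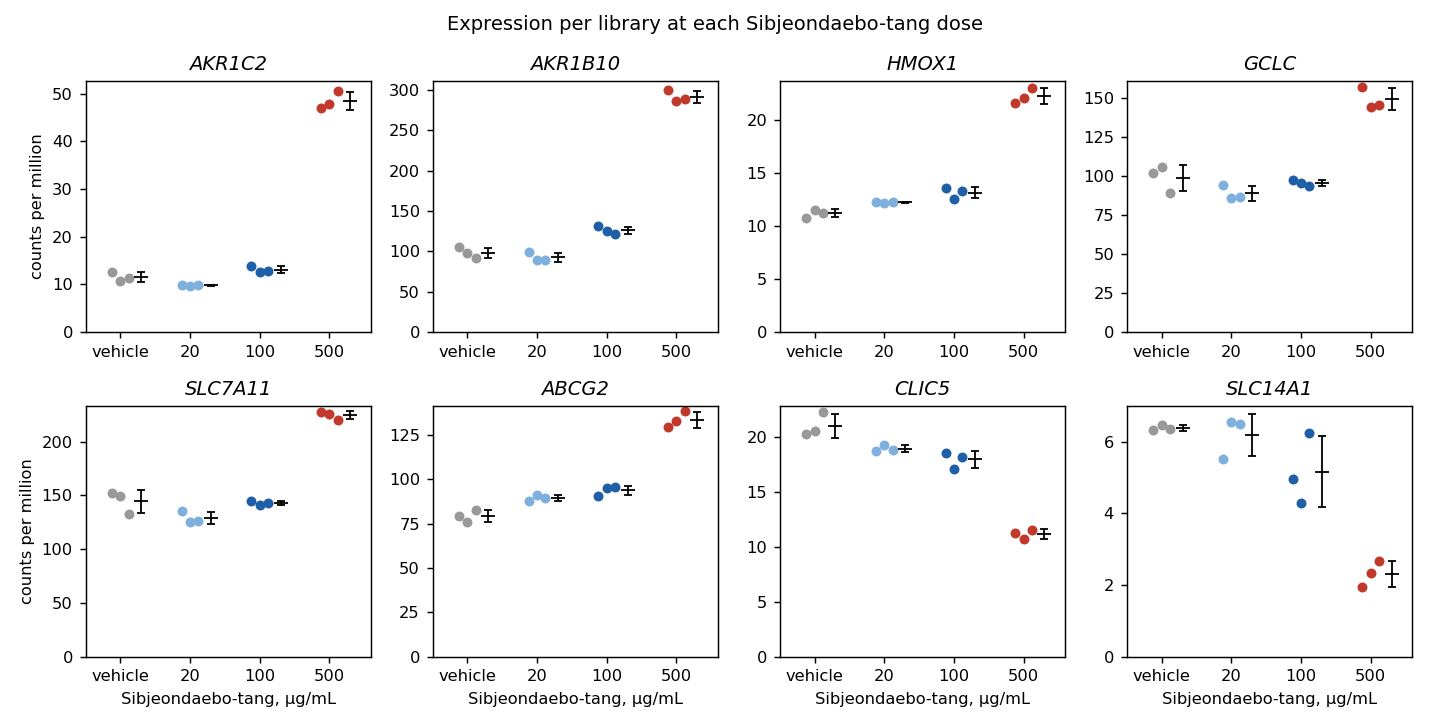
CPM (vertical axes, from 0) of 8 genes in each library at vehicle, 20, 100 and 500 µg/mL of Sibjeondaebo-tang (horizontal axes), with the mean ± SD of 3 libraries in black beside the points. In each panel all libraries at 500 µg/mL lie outside the range of the other 9, for example AKR1C2 at 47.1 to 50.6 CPM and CLIC5 at 10.7 to 11.5 CPM.

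By a stricter reading, 37 genes met a definition called here last step only, or 0.212% of the genes tested. At 500 µg/mL 24 of them were higher (0.138% of the genes tested) and 13 lower (0.0746%). Such a gene was called at 500 against 100 µg/mL, was called with the same sign in the difference between the steps, and had a 95% interval within 0.25 of 0 on the log2 scale in the earlier step. The limit bounds the earlier step and does not place it at 0. For example, the earlier interval lay above 0 for UGT1A10 (0.08 to 0.21) and ME1 (0.03 to 0.17), and held 0 for ABCG2 (-0.009 to 0.145). Below, last step only is meant in this sense. Of the 24 that rose, 8 are on the list of NRF2 targets. The count depended on single libraries. It was 12 and 21 without replicate 1 or 2 at 500 µg/mL, 9, 10 and 7 without replicate 1, 2 or 3 at 100 µg/mL, and 7 and 19 without replicate 1 or 2 at 20 µg/mL. It was 25 without replicate 3 at 500 µg/mL and 36 without replicate 3 at 20 µg/mL. ABCG2 and ME1 kept the pattern in all 9 of these fits, and 11 of the 37 genes kept it in at least 5.

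Genes of glutathione synthesis and cystine supply met the definition of the last-step set, with earlier steps that were small and not called. GCLC, the catalytic subunit of glutamate-cysteine ligase, measured 157, 145 and 146 CPM at 500 µg/mL, against 97.6, 95.9 and 93.9 CPM at 100 µg/mL (log2 fold change 0.64 ± 0.05, adjusted p = 2.05e-10), and its earlier step was 0.10 ± 0.05 (95% interval 0.01 to 0.20, not called). SLC7A11, the cystine importer, measured 228, 226 and 220.4 CPM at 500 µg/mL, against 145, 141 and 143 CPM at 100 µg/mL (0.65 ± 0.04, adjusted p = 9.71e-12), and its earlier step was 0.15 ± 0.04 (95% interval 0.07 to 0.24, not called). For both genes every library at 20 and 100 µg/mL measured less than the highest vehicle library, and every library at 500 µg/mL measured more. SLC7A11 overlaps SLC7A11-AS1 on the opposite strand, and whether counting used strand is not given in the sources used here. GCLM, the partner of GCLC, also rose in the last step, at 119.6 ± 1.36 CPM and 73.2 ± 2.01 CPM, but its earlier step of 0.18 ± 0.05 had an interval reaching 0.28 and it does not count as last step only.

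HMOX1, heme oxygenase, which breaks down heme, measured 21.6, 22.1 and 23.1 CPM at 500 µg/mL, against 13.6, 12.6 and 13.3 CPM at 100 µg/mL. Its last step was 0.76 ± 0.06 (adjusted p = 7.55e-10) and its earlier step 0.10 ± 0.06 (adjusted p = 0.605). FTH1, the heavy chain of ferritin, the iron store, averaged 6265 ± 196 CPM at 500 µg/mL and 4701 ± 70.3 CPM at 100 µg/mL, with a last step of 0.41 ± 0.05 and an earlier step of 0.05 ± 0.05. FTH1 averaged 5530 ± 153 CPM in vehicle, between its levels at the higher doses. It lost the pattern in each of the 9 fits without 1 library.

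Enzymes and a pump that act on foreign or reactive compounds were also in this set. UGT1A6, a glucuronosyltransferase, measured 84.4, 87.0 and 86.9 CPM at 500 µg/mL, against 55.0, 55.4 and 56.4 CPM at 100 µg/mL (log2 fold change 0.63 ± 0.05), and its earlier step was 0.13 ± 0.05. UGT1A8 (0.49 ± 0.04) and UGT1A10 (0.41 ± 0.03) were called in the same way, but the UGT1A genes share exons and their counts are not separate evidence. EPHX1, the microsomal epoxide hydrolase, averaged 179 ± 7.88 CPM at 500 µg/mL and 123 ± 1.66 CPM at 100 µg/mL (0.54 ± 0.05). PTGR1, a reductase of prostaglandins and unsaturated aldehydes, averaged 91.6 ± 0.61 CPM at 500 µg/mL and 63.1 ± 1.87 CPM at 100 µg/mL (0.54 ± 0.05). ABCG2, an efflux pump for drugs and dietary compounds, measured 129.6, 133 and 138 CPM at 500 µg/mL, against 90.7, 94.9 and 95.8 CPM at 100 µg/mL (0.51 ± 0.04, adjusted p = 2.05e-10), and its earlier step was 0.07 ± 0.04.

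The last-step set also held genes of fat oxidation. PDK4, a kinase that shuts pyruvate out of the mitochondrial oxidation route, measured 10.3, 9.71 and 11.1 CPM at 500 µg/mL, against 7.55, 6.72 and 6.33 CPM at 100 µg/mL (log2 fold change 0.60 ± 0.07), and its earlier step was 0.03 ± 0.08. CPT1A, which admits long-chain fatty acids to mitochondria, averaged 138 ± 10.3 CPM at 500 µg/mL and 108 ± 4.30 CPM at 100 µg/mL (0.35 ± 0.04). Both are on a list of 19 tested PPAR targets and fatty acid oxidation genes, of which 9 were higher and none lower (median 0.13). Beside this, 7% of all genes tested were higher and 7.31% lower. For PDK4 and CPT1A the adjusted p of the difference between steps was 0.0499, just under the threshold of 0.05, and they kept the pattern in only 2 (PDK4) and 1 (CPT1A) of the 9 fits without 1 library.

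Of the 13 genes that fell in the last step only, SYT8 and CLIC5 had the largest changes. CLIC5, a chloride channel family protein tied to the actin of microvilli, measured 11.3, 10.7 and 11.5 CPM at 500 µg/mL, against 18.6, 17.1 and 18.2 CPM at 100 µg/mL (log2 fold change -0.68 ± 0.07, adjusted p = 6.99e-08), with an earlier step of -0.08 ± 0.07. SYT8, a synaptotagmin, averaged 11.2 ± 1.27 CPM at 500 µg/mL and 18.1 ± 1.55 CPM at 100 µg/mL (-0.69 ± 0.08). MUC13, a membrane mucin of the intestinal surface, averaged 99.1 ± 4.36 CPM at 500 µg/mL and 133 ± 4.20 CPM at 100 µg/mL (-0.42 ± 0.04). LSS, lanosterol synthase of the cholesterol route, averaged 99.0 ± 1.85 CPM at 500 µg/mL and 122 ± 0.85 CPM at 100 µg/mL (-0.30 ± 0.03). Of these, CLIC5 kept the pattern in 7 of the 9 fits without 1 library, SYT8 in 4, LSS in 3 and MUC13 in 1. MUC13 and LSS are named through their gene lists. Larger falls in this set were those of RHPN1 (-0.57), PILRB (-0.55), CCNL2 (-0.53), AHSA2P (-0.50), ABCA7 (-0.48) and SEMA3B (-0.48). The low levels at 500 µg/mL were not all below vehicle: SYT8 measured 12.5 to 13.5 CPM in vehicle, and RHPN1, another of the 13, averaged 15.5 ± 0.75 CPM in vehicle, 23.2 ± 0.90 CPM at 100 µg/mL and 15.6 ± 0.99 CPM at 500 µg/mL.

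**Figure D2:**
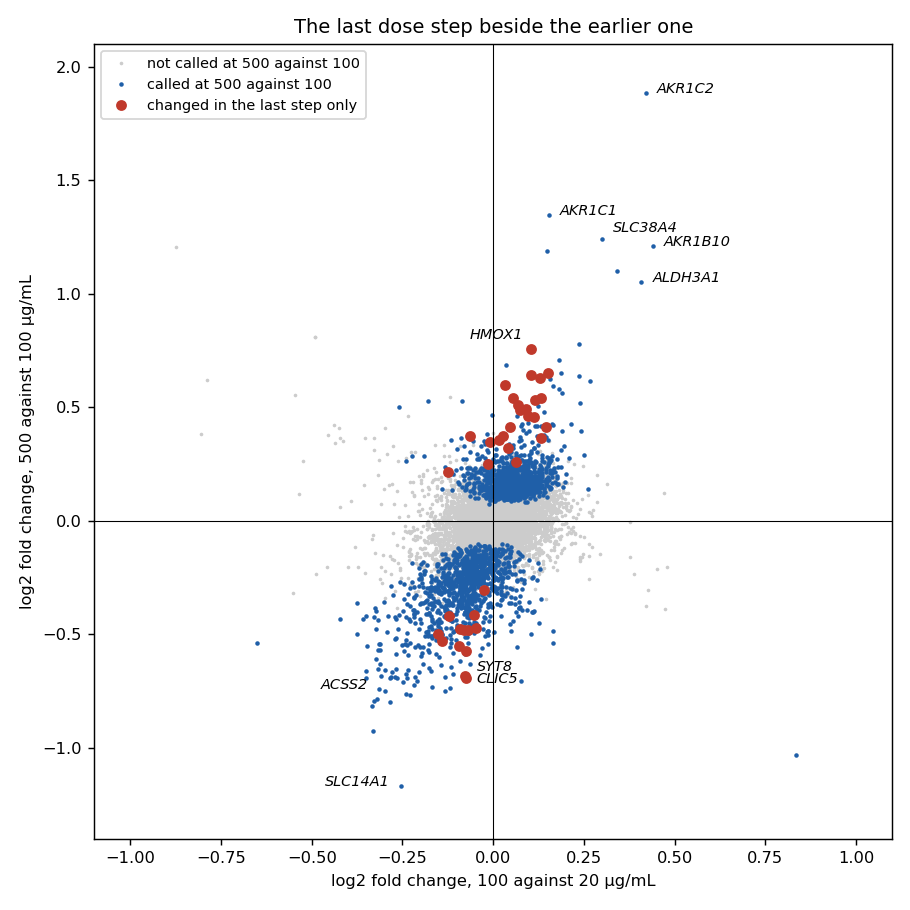
Log2 fold change of each gene averaging 2 or more on the log2 CPM scale, in the last step (500 against 100 µg/mL, vertical axis) against the earlier step (100 against 20 µg/mL, horizontal axis), with 2 of 11001 genes outside the axes. Blue points were called in the last step and the 37 red points changed in the last step only. The definition of the red set limits its horizontal spread, so its wider vertical spread is fixed by that definition. Both axes use the same 100 µg/mL libraries.

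Over all genes the last step was the wider one. At 500 against 100 µg/mL 2494 genes were called, 14.3% of those tested, 1220 higher and 1274 lower, and in the earlier step 17 were called, 0.0975% of those tested, 5 higher and 12 lower (0.0688%). Rises were small, with a median size of 0.17 on the log2 scale over the 1220 genes, against 0.33 over the 1274 that fell. Of called genes 48.9% were higher here and 49.4% with another scaling (RLE). With GC and length trends removed 1349 were higher and 1293 lower. The split moved to 71.9% (2708 higher and 1059 lower) when each library was also centred on its mean over genes. That alternative was chosen after seeing the data. Leaving out replicate 1 at 500 µg/mL lowered the 1220 to 758. The count of 17 in the earlier step was 3 to 20 with a library left out: 4, 11 and 3 without replicate 1, 2 or 3 at 100 µg/mL and 4 and 5 without replicate 2 or 3 at 20 µg/mL. The steps differed by the test of the difference itself for 58 genes, 0.333% of those tested, 35 with a positive and 23 with a negative difference. That count was 26 and 33 without replicate 1 or 2 at 500 µg/mL, 19, 24 and 16 without replicate 1, 2 or 3 at 100 µg/mL, and 22 and 37 without replicate 1 or 2 at 20 µg/mL.

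Outside the NRF2 response, 2 transporters and a surface protein were among the 12 largest rises. SLC38A4, a neutral amino acid transporter, measured 8.68, 9.81 and 9.41 CPM at 500 µg/mL, against 3.67, 4.12 and 3.98 CPM at 100 µg/mL (1.24 ± 0.12, adjusted p = 1.68e-08). ABCG1, a cholesterol exporter and LXR target, averaged 7.63 ± 0.33 CPM at 500 µg/mL and 4.44 ± 0.13 CPM at 100 µg/mL (0.78 ± 0.10). CEACAM5, the carcinoembryonic antigen, averaged 9.75 ± 0.91 CPM at 500 µg/mL and 6.06 ± 0.18 CPM at 100 µg/mL (0.68 ± 0.11), and its vehicle libraries averaged 8.35 ± 1.84 CPM. The difference between steps was not called for any of the 3 (adjusted p = 0.0505 for SLC38A4, 0.345 for ABCG1 and 0.289 for CEACAM5). GPAT3, the last of the 12 rises (0.65 ± 0.06), had a called difference between steps (0.46 ± 0.10, adjusted p = 0.0448).

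Part of the genes of protein folding were higher, by small amounts. Of 20 cytosolic chaperone genes, 15 were higher and none lower (median log2 fold change 0.19), and of 20 genes of folding in the endoplasmic reticulum, 10 were higher, none lower and 10 not called (median 0.15). The shares over all genes tested were 7% higher and 7.31% lower. FKBP4, an HSP90 co-chaperone, averaged 303 ± 4.96 CPM at 500 µg/mL and 248 ± 6.26 CPM at 100 µg/mL (0.29 ± 0.04, adjusted p = 1.45e-06). CANX, the lectin chaperone calnexin, measured 1015, 1013 and 988 CPM at 500 µg/mL, against 891, 852 and 833 CPM at 100 µg/mL (0.23 ± 0.03, adjusted p = 3.28e-05). HSP90B1, the HSP90 of the endoplasmic reticulum, averaged 810.7 ± 8.65 CPM at 500 µg/mL and 717 ± 17.1 CPM at 100 µg/mL (0.18 ± 0.03). In neither list was the difference between the steps called for any member.

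The endoplasmic reticulum stress element, CCAAT and CCACG with 9 bases of any kind between them, searched on both strands, lay within 250 bases before the start of 6 of 19 such genes with a RefSeq promoter, against 0.0806% of all RefSeq promoters. The windows of CANX and HSP90B1 are shown because both genes are described above, again from RefSeq on GRCh38.p14, on the gene's strand with the match in capitals.
CANX: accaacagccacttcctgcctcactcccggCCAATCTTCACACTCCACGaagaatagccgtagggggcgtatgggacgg
HSP90B1: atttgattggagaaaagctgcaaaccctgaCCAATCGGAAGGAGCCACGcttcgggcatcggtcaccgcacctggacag
They span chr5:179698748-179698826 and chr12:103930186-103930264, both on the plus strand. The HSP90B1 match shown lies 194 to 176 bases before the start. A second HSP90B1 match, on the other strand at 89 to 71 bases before the start, is not shown. HSPA5, the main chaperone of the endoplasmic reticulum, also holds the element and was higher (0.23), while XBP1, CALR and CRELD2 hold it and were not called (log2 differences of 0.05, 0.10 and -0.03). These 4 are named for the match.

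Lists of growth and energy supply differed in how many members were called, beside 7% of all genes tested that were higher and 7.31% that were lower. Of 26 ribosome biogenesis genes 20 were higher and none lower (median 0.17), with NOLC1, a nucleolar phosphoprotein, at 402 ± 12.6 CPM at 500 µg/mL and 342 ± 2.27 CPM at 100 µg/mL. Of 20 glycolysis genes 11 were higher and 1 lower (median 0.15), with PKM, pyruvate kinase, at 3010.0 ± 127 CPM at 500 µg/mL and 2539 ± 89.0 CPM at 100 µg/mL. Of 28 proteasome genes 14 were higher and none lower (median 0.18), a count that was 6 to 10 with 1 library of the compared groups left out, 24 with no filter on low counts and 23 with only the compared groups in the fit. Single libraries that lowered it past 1.5-fold were replicates 1, 2 and 3 at 500 µg/mL (8, 9 and 9) and replicates 1 and 3 at 100 µg/mL (7 and 6). Among 30 cytosolic ribosomal protein genes 1 was called, and among 13 mitochondrially encoded genes none was called at an adjusted p under 0.05. Of 27 nuclear genes of oxidative phosphorylation 2 were higher, of 30 mitosis genes 4 and of 30 DNA replication genes 9, and none of these was lower. The count for oxidative phosphorylation was near the share over all genes.

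**Figure D3:**
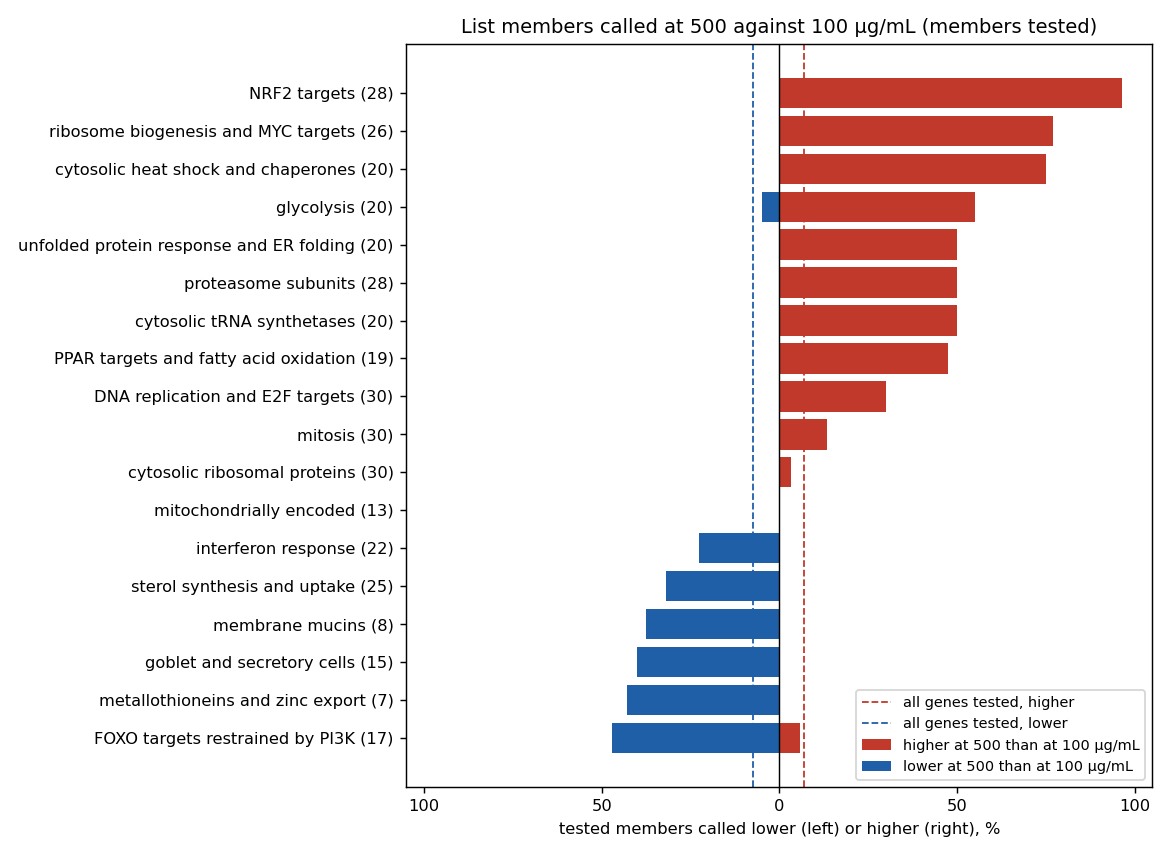
Share of the tested members of 18 gene lists called higher (right, red) or lower (left, blue) at 500 against 100 µg/mL, with the number tested in brackets. Dashed lines mark the shares over all genes tested, 7% higher and 7.31% lower. NRF2 targets lie farthest to the right, with 27 of 28 higher.

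Of 25 genes of sterol synthesis and uptake tested, 8 were lower at 500 µg/mL, none was higher and 17 were not called (median -0.10), beside 7.31% of all genes that were lower. INSIG1, which retains the sterol sensor SCAP in the endoplasmic reticulum, averaged 136 ± 6.56 CPM at 500 µg/mL and 163 ± 5.47 CPM at 100 µg/mL (-0.26 ± 0.04), and LSS, described above, is on the same list. The count of 8 was 5 without replicate 1 at 100 µg/mL. ACSS2, which makes acetyl-CoA from acetate, fell in both steps: it averaged 15.5 ± 0.45 CPM at 500 µg/mL and 26.0 ± 1.05 CPM at 100 µg/mL (-0.74 ± 0.07), with an earlier step of -0.31 ± 0.06 (adjusted p = 0.0432).

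Secretory and surface genes of the gut lining were lower in part, beside 7.31% of all genes tested that were lower. Of 15 goblet and secretory cell genes 6 were lower and none higher (median -0.15), although 3 were called without replicate 2 at 500 µg/mL or without replicate 3 at 100 µg/mL. REG4, a secreted lectin of enteroendocrine and goblet cells, averaged 20.4 ± 1.13 CPM at 500 µg/mL and 26.5 ± 1.59 CPM at 100 µg/mL (-0.38 ± 0.07), and CREB3L1, a transcription factor of the secretory pathway, 128 ± 0.41 CPM and 162 ± 5.51 CPM (-0.35 ± 0.06). Of 8 membrane mucin genes 3 were lower, MUC13 among them. Markers of absorptive cells went both ways: VIL1, villin of the brush border, had a log2 fold change of -0.22 ± 0.03, and KRT20, a keratin of mature colon cells, of 0.35 ± 0.05, and both were called.

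SLC14A1, a urea transporter, had the largest fall among the called genes named here. It measured 1.94, 2.34 and 2.66 CPM at 500 µg/mL, against 4.97, 4.28 and 6.24 CPM at 100 µg/mL (-1.17 ± 0.14, adjusted p = 1.12e-06). Its earlier step was -0.25 ± 0.12 and was not called. Zinc-binding metallothioneins were lower as well, 3 of 7 tested genes of that list (median -0.49) and none higher, beside 7.31% of all genes that were lower. MT1E measured 75.5, 64.8 and 70.3 CPM at 500 µg/mL, against 100.3, 91.1 and 104 CPM at 100 µg/mL (-0.49 ± 0.08, adjusted p = 7.78e-05), with an earlier step of 0.16 ± 0.08 and a called difference between the steps (-0.65 ± 0.13).

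Interferon response genes were lower in 5 of 22 cases and higher in none (median -0.25), and 3 were called without replicate 1 at 500 µg/mL. Over all genes tested 7% were higher and 7.31% lower. IFIT1, which binds viral RNA, measured 2.96, 3.29 and 3.67 CPM at 500 µg/mL, against 4.49, 4.71 and 4.90 CPM at 100 µg/mL (-0.51 ± 0.12, adjusted p = 0.00376). OAS2, an oligoadenylate synthetase, averaged 1.38 ± 0.17 CPM at 500 µg/mL and 2.79 ± 0.37 CPM at 100 µg/mL (-1.02 ± 0.24). Targets of FOXO factors, which PI3K signalling restrains, were lower in 8 of 17 cases and higher in 1 (median -0.09). Among them TP53INP2, an autophagy gene, fell by 0.42 ± 0.07 in the last step and by 0.33 ± 0.07 in the earlier one (adjusted p = 0.000114 and 0.0432).

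NRF2's own regulators moved little. Of 9 tested, SQSTM1 (0.24), KEAP1 (0.23), MAFG (0.17) and CUL3 (0.14) were called higher, and NFE2L2, the gene of NRF2 itself, was not called, at 125 ± 3.73 CPM at 500 µg/mL and 123 ± 3.82 CPM at 100 µg/mL, with a 95% interval of -0.07 to 0.11 for the log2 difference. Without replicate 2 at 100 µg/mL, 2 of the 9 were called, and KEAP1 and MAFG were not (adjusted p = 0.0507 and 0.0762). KEAP1 was also not called without replicate 3 at 500 µg/mL (adjusted p = 0.0521). The share of all genes tested that were higher was 7%. Of 7 genes of the aryl hydrocarbon receptor pathway, UGT1A6 and TIPARP were called higher, TIPARP not without replicate 1 or 3 at 500 µg/mL or without any 1 of the replicates at 100 µg/mL (adjusted p of 0.0523 to 0.161). CYP1A1, the enzyme this receptor is best known for, averaged 1.68 ± 0.20 CPM at 500 µg/mL and 0.94 ± 0.20 CPM at 100 µg/mL, a log2 difference of 0.84 that was not called (adjusted p = 0.236).

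The same step of Palmul-tang, the formula with fewer herbs, was set beside this one. It had 1214 genes called, 6.96% of those tested, with 663 higher (3.8%) and 551 lower (3.16%). HMOX1 had a log2 fold change of 0.76 ± 0.06 with Sibjeondaebo-tang and 0.87 ± 0.06 with Palmul-tang, and the 95% interval of the difference was -0.28 to 0.07. For GCLC the interval of the difference was -0.14 to 0.13 and for CLIC5 -0.20 to 0.21. Some other falls of the last-step-only set did differ between the extracts. That set was chosen by the same Sibjeondaebo-tang step that enters the difference, so how many differ is not a separate result. The difference was called for RHPN1 (-0.54, adjusted p = 0.00135), CCNL2 (-0.43), AHSA2P (-0.39), PILRB (-0.51), AL390719.2 (-0.44) and TNFRSF14 (-0.31). It was not called for the remaining falls of that set. In all, 67 genes, 0.384% of those tested, had a called difference between the extracts in this step, 3 of them with a higher (0.0172%) and 64 with a lower change (0.367%) under Sibjeondaebo-tang. AKR1C2 was the single NRF2 target among them, with 1.89 ± 0.07 under Sibjeondaebo-tang and 1.45 ± 0.07 under Palmul-tang, a difference of 0.44 ± 0.10 (adjusted p = 0.0457). The count of 67 was 31 to 69 with a library left out. It was 32 and 34 without Sibjeondaebo-tang replicate 1 or 2 at 500 µg/mL, 40 and 31 without its replicate 2 or 3 at 100 µg/mL, 40, 42 and 35 without Palmul-tang replicate 1, 2 or 3 at 500 µg/mL, and 35 without Palmul-tang replicate 1 at 100 µg/mL.

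The 64 genes with a lower change under Sibjeondaebo-tang included several that fell strongly in its last step. GOLGA8B, a golgin gene of a segmentally duplicated family, measured 18.4, 15.6 and 19.4 CPM at 500 µg/mL, against 32.3, 30.8 and 30.9 CPM at 100 µg/mL (-0.81 ± 0.09), and had a step of -0.02 ± 0.09 with Palmul-tang. LINC00342, a long noncoding RNA, averaged 1.96 ± 0.17 CPM at 500 µg/mL and 3.73 ± 0.28 CPM at 100 µg/mL (-0.93 ± 0.12), and had a step of -0.09 ± 0.11 with Palmul-tang. PGGHG, a glucosidase acting on hydroxylysine-linked sugars, measured 59.1, 64.1 and 71.0 CPM at 500 µg/mL, against 103, 114 and 118 CPM at 100 µg/mL (-0.79 ± 0.07), and had a step of -0.12 ± 0.07 with Palmul-tang. PGGHG was also lower in the earlier step of Sibjeondaebo-tang (-0.32 ± 0.07, adjusted p = 0.0473), and the difference between the steps was not called (adjusted p = 0.0825). Its vehicle libraries measured 67.2, 67.3 and 68.7 CPM, so its level at 500 µg/mL lay around that of vehicle, with the limit on vehicle libraries given above. Reads of GOLGA8B may be shared with near-identical copies.

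**Figure D4:**
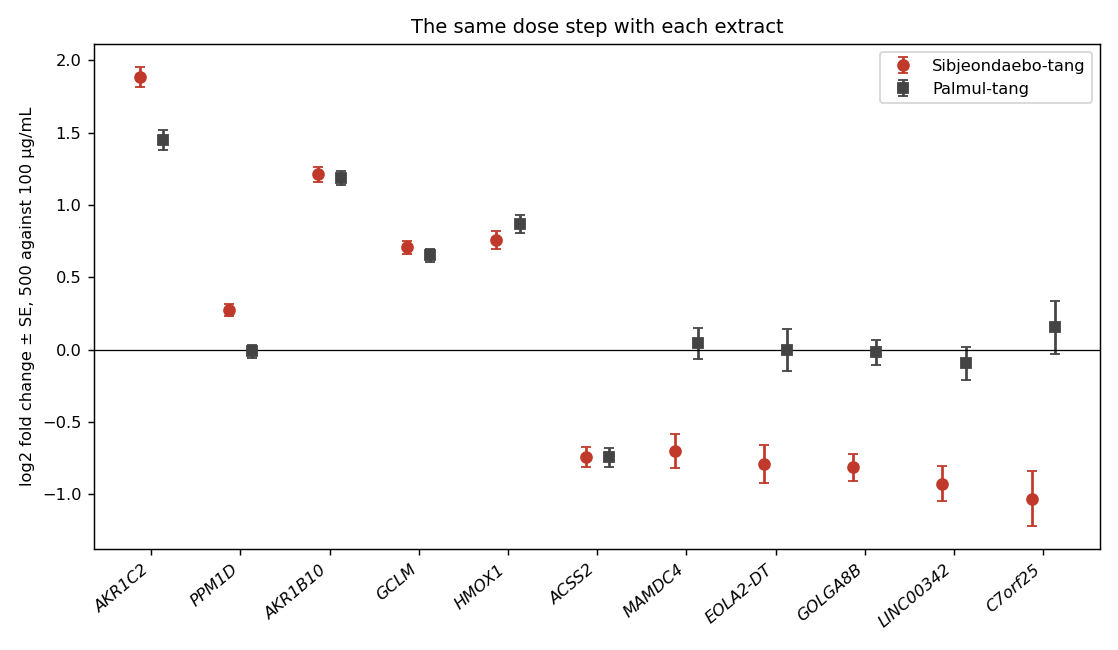
Log2 fold change ± SE (vertical axis) at 500 against 100 µg/mL for 11 genes, with Sibjeondaebo-tang (red circles) left of Palmul-tang (grey squares). AKR1B10, GCLM, HMOX1 and ACSS2 lie close together under both extracts, while GOLGA8B (-0.81 and -0.02) and LINC00342 (-0.93 and -0.09) lie apart.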

How the data were processed

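RNA of HT29 cells was sequenced as 100 bp read pairs from stranded libraries, per the labels' protocols. The deposited table holds expected counts for 60675 genes, made by the authors with FastQC 0.11.9, Trim Galore 0.6.5, STAR 2.7.3a and RSEM 1.3.3 on hg38, per the submitters' processing notes. RSEM shares reads among similar genes, so 9.454% of values were not whole; they were rounded. Of 273 columns, 33 were used and 240, which match no sample here, were not. CPM values were computed from TMM-scaled totals. Genes were filtered at a minimum count of 10, leaving 17432, and tested with edgeR 4.0.16 (R 4.3.3) by quasi-likelihood, with 1 coefficient for each of 13 groups over all 33 libraries and Benjamini-Hochberg adjustment at 0.05. Standard errors are the log2 fold change over the square root of F. On simulated counts with 200 changed genes for the comparison of 500 with 100 µg/mL, 37.31%, 61.19% and 75.76% of genes changed by 0.25, 0.5 and 1 log2 were recovered among 17432. Named genes were the 12 largest changes in each direction and the leading genes that changed in the last step only or differed from Palmul-tang. Up to 4 genes of each of 38 lists were named by smallest p. Genes named by size of change averaged 2 or more on the log2 CPM scale, had a standard name and did not overlap between 500 and 100 µg/mL. Their lack of overlap was thus fixed by the rule, and 5852 genes (33.6% of those tested) showed it. ABCC3, FTH1, UGT1A8, NFE2L2, ME1, AL390719.2 and TNFRSF14 were chosen after their values were seen. Some genes that the rule names are not reported here. The members and lists were chosen with earlier results of these data known. Alternatives were other scaling (RLE), no filter, fewer libraries, a replicate block, GC and length correction, thinning, DESeq2 1.42.0 and leaving out each library. Gene positions are from GENCODE 29.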

Additional observations from a re-analysis of the deposited data

Results flagged for a closer look

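The change between 100 and 500 µg/mL differed between Sibjeondaebo-tang and Palmul-tang by a test of the difference for 67 genes. Among the named genes the difference (Sibjeondaebo-tang minus Palmul-tang, log2) was 0.44 for AKR1C2 (adjusted p = 0.0457). It was 0.29 for PPM1D, a phosphatase that restrains p53 (adjusted p = 0.0312). PPM1D measured 23.0, 23.6 and 22.1 CPM at 500 µg/mL of Sibjeondaebo-tang and 19.0, 19.2 and 18.7 CPM at 100 µg/mL, a log2 change of 0.27 ± 0.04, against -0.01 ± 0.04 with Palmul-tang. The difference was -0.83 for LINC00342 (adjusted p = 0.0174), -0.80 for GOLGA8B (adjusted p = 0.00151), -0.79 for EOLA2-DT (adjusted p = 0.0394) and -0.75 for MAMDC4 (adjusted p = 0.0307). MAMDC4 averaged 4.68 ± 0.37 CPM at 500 µg/mL of Sibjeondaebo-tang and 7.60 ± 0.51 CPM at 100 µg/mL, beside 4.39 ± 0.34 CPM in vehicle. C7orf25 had a difference of -1.19 (adjusted p = 0.0394). It overlaps AC010132.3 on the same strand, a gene named here after its values were seen. C7orf25 measured 6.14, 4.95 and 4.65 CPM at 500 µg/mL and 9.72, 10.3 and 12.1 CPM at 100 µg/mL, where AC010132.3 measured 9.03, 10.5 and 12.1 CPM and 0.77, 2.96 and 0.022 CPM. How reads were divided between these overlapping genes was not tested.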

How the results depend on the processing

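No gene the naming rule gave, markers of other cell types aside, reversed its direction at 500 against 100 µg/mL in the alternatives run. The count of higher genes (1220) was 2708 with GC and length trends removed and each library centred on its mean over genes, an alternative chosen after seeing the data, and 758 to 967 with 1 library left out; the count of lower genes (1274) was 897 to 1052. The earlier step (17 genes) gave 240 with no filter, 7 with only the groups compared, 31 with GC and length trends removed, 51 with these centred, 107 with DESeq2 and 3 to 20 with 1 library left out. The difference between steps (58) gave 222 with no filter, 32 after thinning and 16 to 57 with 1 library left out. The difference from Palmul-tang (67) gave 248 with no filter, 32 with the centred correction and 31 to 69 with 1 library left out. The last-step-only set (37) gave 64 with no filter, 20 with GC and length trends removed, centred or not, 19 after thinning, 58 with DESeq2, 20 with only the groups compared, 10 with an interval limit of 0.15 and 7 to 36 with 1 library left out. The causes were not tested. Replicate numbers shared by the groups do not show a pairing: same-numbered libraries at 500 and 100 µg/mL deviated with correlations of 0.093, 0.141 and 0.046, each the highest for its library, which is a hint from the data and not the design. With a replicate block the counts were 1446 higher and 1425 lower, 85 in the earlier step (107 with 18 libraries, 100 with GC and length trends removed), 91 for the difference between steps (91 with GC and length trends removed), 115 from Palmul-tang (115 with 18 libraries, 126 with GC and length trends removed) and 58 in the last step only (58 with GC and length trends removed). Sterol genes lower were 14 with the block and 18 libraries. On simulated counts for the difference between steps, 5.97% of genes changed by 0.25 log2 were recovered, so small differences between steps were mostly not detectable.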

Other observations

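Some classes of genes outside the protein-coding one held few rises in the last step. Of 846 lincRNA genes tested 8 were higher (0.946%) and 63 lower (7.45%) at 500 against 100 µg/mL, and of 1297 antisense genes 10 were higher (0.771%) and 60 lower (4.63%), beside 7% of all genes higher and 7.31% lower. Of 206 processed transcripts 1 was higher and 36 were lower (17.5%), and of 254 transcribed unprocessed pseudogenes 2 were higher and 40 lower (15.7%). Of 627 processed pseudogenes 5 were higher and 4 lower. Of 13265 protein-coding genes 1188 were higher (8.96%) and 1013 lower (7.64%). In the same step of Palmul-tang, where 3.8% of all genes were higher and 3.16% lower, 4 processed transcripts were higher and 7 lower, 2 transcribed unprocessed pseudogenes were higher and 4 lower, 5 lincRNA genes were higher and 14 lower, and 3 antisense genes were higher and 9 lower. The difference between the extracts was not tested for these classes. The biotypes are those of GENCODE 29.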
